A study of Rattus norvegicus with 9 samples.

Results

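Interleukins are secreted proteins through which immune and glial cells signal to each other, and each acts through a receptor built from a ligand-binding chain and a chain that starts the signal. Receptors of the IL-1 family recruit the adaptor Myd88 and its Irak kinases, receptors for IL-4, IL-15 and IL-21 share the common gamma chain and signal through Jak kinases and Stat factors, and receptors of the IL-6 family share the chain gp130. In an injured brain, these genes are known from microglia, infiltrating leukocytes, astrocytes and oligodendrocytes.

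Described here are 75 genes of 22890 in rat striatal RNA-seq read counts. They were chosen by name, as every gene ID that begins with Il and a digit, apart from Il1b, Il18 and Il34. They comprised 32 ligands, 41 receptor chains and binding proteins, and 2 genes of neither kind. Total RNA of striatal tissue was sequenced from 9 rat libraries: 3 Sham, 3 ICH (intracerebral hemorrhage, bleeding into the brain) and 3 EDB (edaravone dexborneol, a combination of the free radical scavenger edaravone with dexborneol). Beyond these group names, the labels state no strain, age, sex, dose, time or method of bleeding, and whether rats given EDB were also bled is not said in them. No label ties a library to its own animal, so p-values measure the spread between these libraries, which may be technical.

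The libraries held 14658110 to 17659936 counts each. Levels are given as CPM, the usual unit that expresses a gene's count relative to its library's total, here scaled by TMM factors. A count of 3 corresponded to 0.162 to 0.212 CPM. Striatal neuron markers were present in every library, at a summed 5173 to 11933 CPM. Library EDB 3 stood apart in choroid plexus markers, at a summed 7283 CPM against 27.7 to 74.6 CPM in the other libraries. Each comparison shares its libraries with the other two, so their values are set side by side and not counted as independent. In bulk tissue, fewer cells of a type and less RNA per cell cannot be told apart.

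Between ICH and Sham, 12 interleukin family genes rose and none fell among the 33 that could be tested, a call being an adjusted p under 0.05 (edgeR quasi-likelihood test, Benjamini-Hochberg over 14274 genes). At an unadjusted p under 0.05, 15 of the 33 differed, beside 31.5% of all genes tested. Of the 12, 10 were receptor chains, and the other two were the receptor antagonist Il1rn and the cytokine precursor gene Il16. Of all genes tested, 18.7% were called in this comparison, 11.4% as higher and 7.3% as lower. The members' share was 36.4%, but 3 of the 33 reached the filter level of 0.614 CPM in all ICH libraries only, and 6 in all ICH and all EDB libraries only, so that they could be tested because they were high there. Among the 12 risen genes, Il21r, Il16, Il4r, Il6r and Il17ra were above that level in every library. The median log2 fold change of the 33 genes was 0.90, beside 0.01 over all genes tested. Other fits filtered the genes anew, so their medians can cover other members than these 33. The median was 0.48 without ICH 1 and 0.25 with the 6 libraries other than Sham 2, ICH 1 and EDB 3. With all libraries and no filter on low counts it was 0.55. ICH 1 held the highest level of 16 of the 33 genes.

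**Figure D1:**
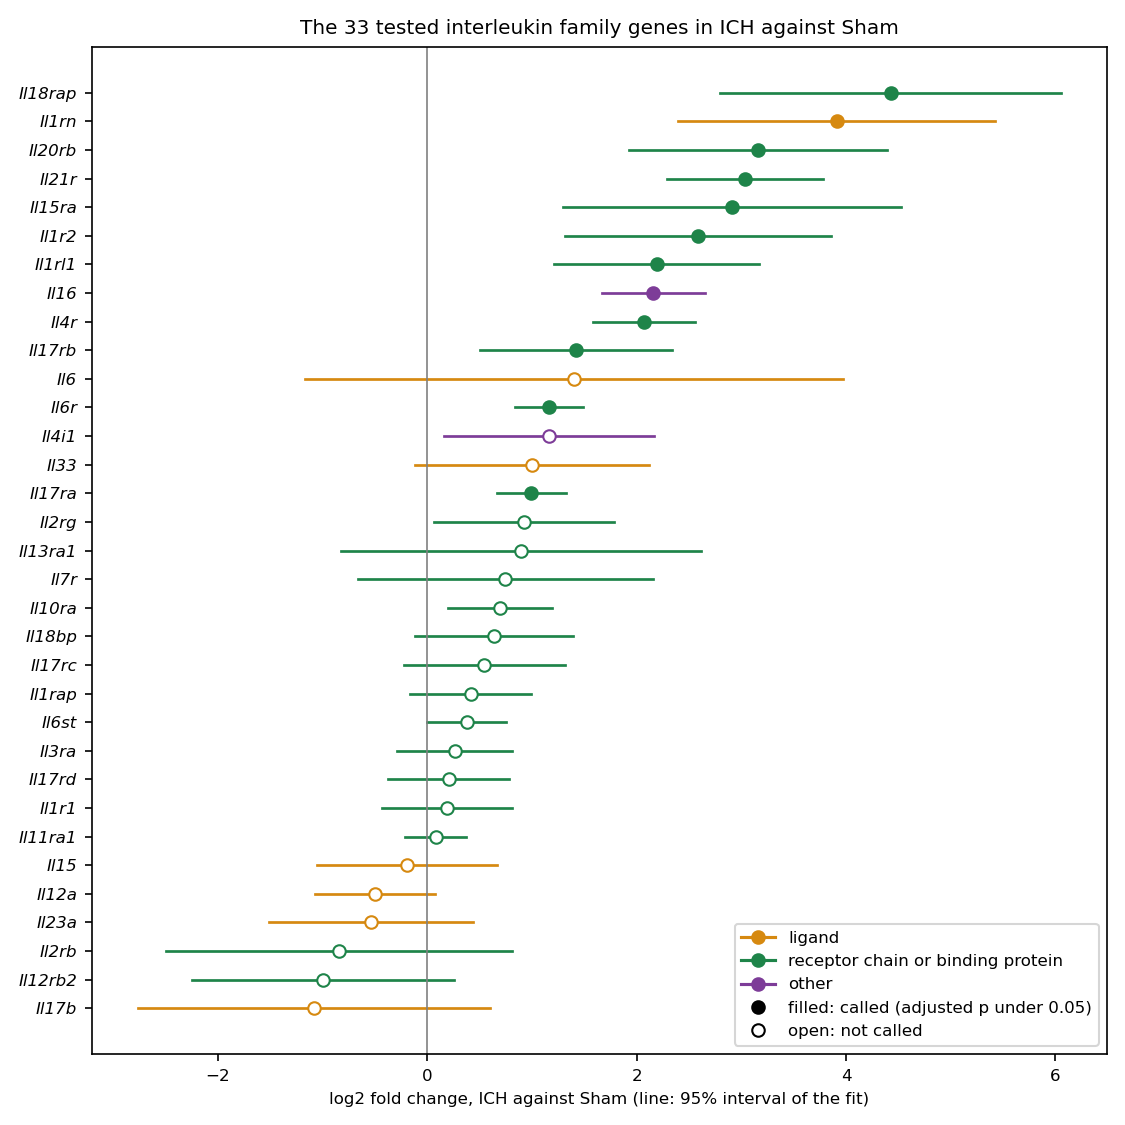
Log2 fold change in ICH against Sham (x axis) of the 33 tested interleukin family genes (y axis), with the 95% interval of the fit. Orange points are ligands, green points receptor chains and binding proteins, purple points other genes; filled points passed the adjusted threshold, and the 12 filled points all lie to the right of 0.

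Among the IL-1 family ligands, the antagonist gene changed and the other tested ligand did not pass. Il1rn encodes the IL-1 receptor antagonist, which occupies the IL-1 receptor without starting a signal. It measured 0.437, 0.137 and 0.0708 CPM in Sham, 5.83, 2.45 and 2.0 CPM in ICH, and 0.928, 0.480 and 1.06 CPM in EDB. ICH 1 was far above the other libraries, and the 3 groups did not overlap. The rise in ICH against Sham was 3.91 ± 0.69 on the log2 scale (SE, adjusted p = 0.00264, edgeR), from 176 counts in ICH against 10 in Sham. The ratio of these summed counts, scaled by library size, was 15.3 with an exact 95% interval of 8.11 to 32.4 that covers counting error only. In the reference annotation Il1rn overlaps Il36b, and as no strand setting is given for the counting, reads of the 2 genes could not be separated with certainty.

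Il33 encodes a nuclear alarmin released by damaged cells, in the brain mostly oligodendrocytes and astrocytes. Its levels were 24.4, 9.64 and 31.7 CPM in Sham, 80.1, 24.1 and 27.3 CPM in ICH, and 19.7, 31.2 and 20.7 CPM in EDB. Only ICH 1 lay above the Sham range, and the log2 fold change in ICH against Sham was 1.0 ± 0.5 (adjusted p = 0.205, edgeR). Without ICH 1 that value was 0.23. Il1a, the second agonist beside Il1b, was under the filter, with 3, 2 and 10 counts in Sham, 30, 8 and 1 in ICH, and 3, 10 and 5 in EDB. The excluded Il1b stood at 0.0625 to 0.479 CPM in Sham and 0.216 to 1.34 CPM in ICH, and these ranges overlapped. The excluded Il18 was called higher in ICH than in Sham, by 2.0 ± 0.46 (SE) on the log2 scale (adjusted p = 0.0114, edgeR).

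Of 6 tested IL-1 family receptor chains and binding proteins, Il18rap, Il1r2 and Il1rl1 rose in ICH and the signalling chains Il1r1 and Il1rap did not pass the test. Il18rap, the accessory chain of the IL-18 receptor, measured 0, 0.274 and 0.142 CPM in Sham, 2.86, 2.83 and 3.51 CPM in ICH, and 2.29, 0.959 and 0.750 CPM in EDB. Sham libraries were near the counting floor and no groups overlapped. The change in ICH against Sham was 4.43 ± 0.74 (adjusted p = 0.00192, edgeR), the largest of the 33 genes. It rested on 159 counts against 6, a scaled ratio of 23.0 (exact 95% interval 10.3 to 63.6, counting error only). Il18r1, the ligand-binding partner chain, had 2 counts over all 9 libraries.

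Il1r2 encodes a decoy receptor that binds IL-1 without signalling. Its levels were 0.187, 0.205 and 0.212 CPM in Sham, 1.92, 1.07 and 0.756 CPM in ICH, and 0.619, 0.480 and 0.313 CPM in EDB. All ICH libraries were above all EDB libraries, and these above all Sham libraries. In ICH against Sham the log2 fold change was 2.59 ± 0.58 (adjusted p = 0.00990, edgeR), on 64 counts against 9, with adjusted p = 0.0533 without ICH 1. By contrast Il1r1, the signalling receptor, stood at 8.44, 5.61 and 11.7 CPM in Sham, 12.4, 9.31 and 7.61 CPM in ICH, and 6.37, 6.83 and 7.56 CPM in EDB. Sham and ICH overlapped widely, with a log2 fold change of 0.19 and a 95% interval of -0.43 to 0.81. Its shared accessory chain Il1rap measured 20.4, 17.1 and 18.4 CPM in Sham, 32.0, 27.8 and 14.7 CPM in ICH, and 23.0, 29.2 and 19.3 CPM in EDB (log2 fold change in ICH against Sham 0.41, adjusted p = 0.318, edgeR). ICH 3 lay below every Sham library for Il1rap, and without it Il1rap was called higher in ICH than in Sham (0.68, adjusted p = 0.0446).

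Within each library, the level of the decoy was set against that of the signalling receptor, a pair chosen after its values were seen. The log2 ratio of Il1r2 to Il1r1 counts was -5.27, -4.56 and -5.56 in Sham, -2.67, -3.09 and -3.29 in ICH, and -3.30, -3.75 and -4.47 in EDB. No groups overlapped. The ICH mean exceeded the Sham mean by 2.12 on this scale. The exact two-sided permutation test gave p = 0.1, the smallest that 3 against 3 libraries allow, or 0.12 adjusted over 6 relations. As the pair was chosen on these values and Il1r2 had already been called, this test gives no separate support.

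Il1rl1 encodes ST2, the receptor for IL-33. It measured 0.937, 0.479 and 1.13 CPM in Sham, 5.83, 2.39 and 3.51 CPM in ICH, and 1.86, 2.34 and 1.81 CPM in EDB. ICH 2 lay close to EDB 2, and all Sham libraries were lower. The rise in ICH against Sham was 2.19 ± 0.44 (adjusted p = 0.00594, edgeR). The log2 ratio of Il1rl1 to its ligand gene Il33 was -4.65, -4.24 and -4.76 in Sham, -3.77, -3.32 and -2.95 in ICH, and -3.38, -3.72 and -3.49 in EDB. Both ICH and EDB lay above Sham in that ratio without overlap, again at the smallest possible exact permutation p of 0.1, adjusted 0.12. Il1rl1 had already been called in ICH against Sham on these libraries, so this test gives no separate support either. Il18bp, a secreted protein that neutralises IL-18, stood at 9.06, 5.81 and 7.15 CPM in Sham, 13.1, 11.8 and 9.45 CPM in ICH, and 5.94, 4.5 and 12.3 CPM in EDB. Its ICH libraries were all above Sham, but the difference of 0.64 did not pass (adjusted p = 0.237, edgeR). The neuronal adhesion members Il1rapl1 and Il1rapl2 were under the filter. Il1rapl1 had 4, 4 and 2 counts in Sham, 3, 5 and 5 in ICH, and 7, 2 and 5 in EDB. Il1rapl2 had 1, 3 and 4 counts in Sham, 1, 3 and 1 in ICH, and 7, 5 and 2 in EDB.

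In the reference annotation, several of these receptor genes form one cluster, in which Il1r1, Il1rl2, Il1rl1, Il18r1 and Il18rap follow each other with no gene between, and 2 genes lie between Il1r2 and Il1r1. The cluster held risen genes (Il1r2, Il1rl1, Il18rap), the uncalled Il1r1, and the untested Il1rl2 and Il18r1, which had 27 and 2 counts over all libraries.

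**Figure D2:**
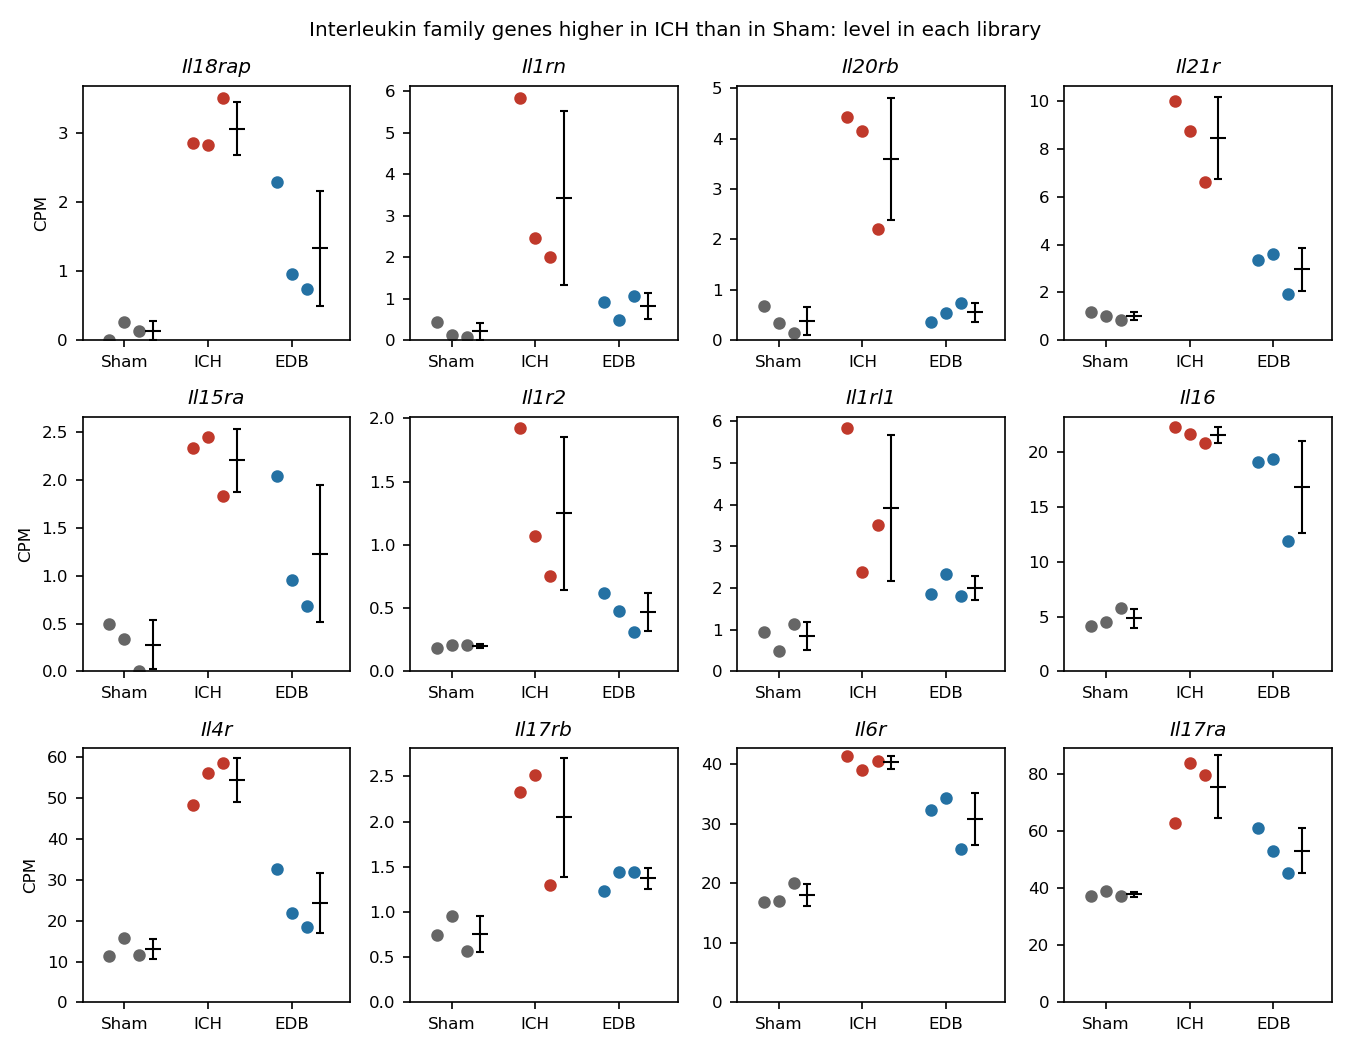
Level in CPM (y axis, linear from 0, one scale per gene) of the 12 interleukin family genes called higher in ICH than in Sham, in each of the 3 Sham, 3 ICH and 3 EDB libraries (points), with the mean and SD of each group (bar and whiskers). For all 12 genes every ICH library lies above every Sham library, while EDB libraries lie between or overlap one of the other groups.

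Of the 10 receptor chains of the common gamma and IL-4 and IL-13 group, 7 could be tested, and Il4r, Il21r and Il15ra rose in ICH. Il4r, the chain that binds IL-4 and, with Il13ra1, also serves IL-13, measured 11.4, 15.8 and 11.7 CPM in Sham, 48.5, 56.3 and 58.7 CPM in ICH, and 32.7, 21.8 and 18.5 CPM in EDB. The groups were fully separate, in the order Sham, EDB, ICH. In ICH against Sham it rose 4.20-fold, a log2 change of 2.07 ± 0.22 (adjusted p = 1.12e-04, edgeR). Il21r, the IL-21 receptor chain known from lymphocytes, measured 1.19, 1.03 and 0.850 CPM in Sham, 9.97, 8.75 and 6.59 CPM in ICH, and 3.34, 3.60 and 1.94 CPM in EDB. It showed the same order without overlap, and rose by 3.03 ± 0.34 in ICH against Sham (adjusted p = 1.51e-04, edgeR). Il4r and Il21r are neighbours in the reference annotation, with one long noncoding RNA gene and no protein-coding gene between them.

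Il15ra, which presents IL-15 to neighbouring cells, had 0.5, 0.342 and 0 CPM in Sham, 2.33, 2.45 and 1.84 CPM in ICH, and 2.04, 0.959 and 0.688 CPM in EDB. EDB 1 fell within the ICH range and the other EDB libraries between ICH and Sham. The rise in ICH against Sham was 2.91 ± 0.73 (adjusted p = 0.0179, edgeR), on 113 counts against 13 and a scaled ratio of 7.54 (exact 95% interval 4.24 to 14.6). It did not pass without ICH 1 (adjusted p = 0.0513) or without ICH 2 (adjusted p = 0.0560). Its ligand gene Il15 stood at 2.37, 1.78 and 1.49 CPM in Sham, 1.05, 2.01 and 1.89 CPM in ICH, and 1.18, 1.62 and 1.69 CPM in EDB. These Il15 values overlapped in all groups (log2 fold change in ICH against Sham -0.19, 95% interval -1.05 to 0.67).

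The partner chains of these receptors were not called. The common gamma chain Il2rg measured 3.31, 1.85 and 3.40 CPM in Sham, 8.28, 4.91 and 3.08 CPM in ICH, and 2.85, 2.34 and 2.50 CPM in EDB. ICH 1 and ICH 2 were above Sham and ICH 3 was within it (log2 fold change 0.92, adjusted p = 0.130, edgeR). Il13ra1 measured 0.375, 0.137 and 1.13 CPM in Sham, 1.87, 0.315 and 0.864 CPM in ICH, and 0.557, 1.02 and 0.438 CPM in EDB. Its groups overlapped, at a log2 fold change of 0.90 ± 0.78 (adjusted p = 0.491, edgeR). The other tested chains of the group, Il7r and Il2rb, had log2 fold changes of 0.74 and -0.84 and were not called. Il2ra was under the filter with 34 counts in Sham, 17 in ICH and 16 in EDB.

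Il16 encodes a precursor whose cleaved end is a chemoattractant for CD4-bearing cells, and it had the smallest p of the family in ICH against Sham. It measured 4.19, 4.51 and 5.80 CPM in Sham, 22.3, 21.6 and 20.8 CPM in ICH, and 19.1, 19.4 and 11.9 CPM in EDB. The 3 ICH libraries were nearly equal, and EDB 1 and EDB 2 were close below them. The log2 fold change in ICH against Sham was 2.16 ± 0.22 (adjusted p = 9.21e-05, edgeR), or 4.46-fold. The reference annotation places a pseudogene over part of Il16. The enzyme gene Il4i1, an amino acid oxidase first found as induced by IL-4, had 0.437 to 0.752 CPM in Sham and 0.991 to 1.78 CPM in ICH, without overlap, and was not called (log2 fold change 1.16, adjusted p = 0.106, edgeR).

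The 250 bases before the annotated start of Il15ra and Il16 are shown because both genes rose and both windows hold the AP-1 type motif TGANTCA, in capitals. They come from the RefSeq promoter table of build GRCr8, in the direction of the gene, on the minus strand at chr17:71741654-71741903 for Il15ra and chr1:147116743-147116992 for Il16. In the Il15ra window GAGGAA, a core bound by PU.1-type factors, is also in capitals.
Il15ra: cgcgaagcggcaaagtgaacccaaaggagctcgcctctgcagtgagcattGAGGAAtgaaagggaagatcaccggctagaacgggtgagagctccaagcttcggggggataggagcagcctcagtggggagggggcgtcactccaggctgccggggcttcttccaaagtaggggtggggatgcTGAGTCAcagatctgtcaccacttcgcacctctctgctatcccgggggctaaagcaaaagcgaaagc
Il16: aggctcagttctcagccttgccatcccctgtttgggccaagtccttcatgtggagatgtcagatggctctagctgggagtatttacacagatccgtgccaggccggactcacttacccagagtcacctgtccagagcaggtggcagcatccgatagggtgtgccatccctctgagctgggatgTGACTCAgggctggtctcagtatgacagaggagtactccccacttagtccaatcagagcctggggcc

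The TGANTCA match lies 67 to 61 bases before the start in both windows, and the pattern, in which N is any base, matches on both strands. Of all 33469 windows of this length, 6.34% hold it on either strand. Among the 59 interleukin family genes with a window it was in 6, and among the 9 risen genes with one it was in Il15ra and Il16. GAGGAA was in 23.3% of all windows, in 19 of the 59, and among the risen genes in Il15ra and in Il6r, where it lies 208 to 203 bases before the start on the opposite strand. The Stat motif TTCNNNGAA, in 7.67% of all windows, was in 5 of the 59 and in none of the 9 risen genes. The NF-kB consensus, in 6.33% of all windows, was in 8 of the 59 and in none of the 9. These are matches of letters within these windows and say nothing of binding.

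In the gp130 group the IL-6-binding chain rose, while the ligand and the shared chain did not pass. Il6r measured 16.8, 17.1 and 20.1 CPM in Sham, 41.3, 39.0 and 40.6 CPM in ICH, and 32.2, 34.3 and 25.8 CPM in EDB. The groups were separate from each other, and the rise in ICH against Sham was 1.16 ± 0.15 (adjusted p = 2.98e-04, edgeR). Il6r overlaps She in the reference annotation, which is also among the counted genes, so reads of the shared part are uncertain. Il6st, which encodes gp130, measured 145, 129 and 161 CPM in Sham, 231, 174 and 159 CPM in ICH, and 143, 197 and 149 CPM in EDB. ICH 3 lay within the Sham range, and the log2 fold change was 0.38 ± 0.17 (adjusted p = 0.161, edgeR).

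Il6 itself was scarce, at 0.0625, 0 and 0.637 CPM in Sham, 1.28, 0.0629 and 0.486 CPM in ICH, and 0.495, 0.839 and 0.125 CPM in EDB. These values were scattered in every group, and the log2 fold change of 1.40 ± 1.17 in ICH against Sham had a 95% interval of -1.16 to 3.97 (adjusted p = 0.464, edgeR). Leaving out 1 library moved that value between 0.84 (without Sham 2) and 3.95 (without Sham 3), and none of the 7 such fits that kept Il6 above the filter called it. The IL-11 receptor chain Il11ra1 was steady at 29.7, 28.8 and 28.0 CPM in Sham, 27.0, 33.6 and 30.8 CPM in ICH, and 34.9, 30.5 and 36.1 CPM in EDB, with a 95% interval of -0.21 to 0.37 for ICH against Sham. Its EDB libraries were all above Sham, though the difference was not called.

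Of the 4 tested IL-17 receptor chains, Il17ra and Il17rb rose in ICH. Il17ra, the chain shared by IL-17 receptors, measured 37.4, 39.0 and 37.4 CPM in Sham, 63.0, 84.1 and 79.8 CPM in ICH, and 61.2, 53.2 and 45.3 CPM in EDB. EDB lay between the other groups, with EDB 1 close to ICH 1. It was 1.99-fold higher in ICH than in Sham (log2 change 1.0 ± 0.15, adjusted p = 9.09e-04, edgeR). Il17rb, the IL-25-binding chain, measured 0.750, 0.958 and 0.566 CPM in Sham, 2.33, 2.52 and 1.3 CPM in ICH, and 1.24, 1.44 and 1.44 CPM in EDB. Its rise of 1.42 ± 0.42 had an adjusted p of 0.0360 (edgeR), the weakest of the 12, and it did not pass without any 1 library other than Sham 2 or ICH 3 (adjusted p up to 0.137), nor in 4 of the 9 other settings (up to 0.0986). Il17rb overlaps Actr8 and Chdh in the reference annotation, so its reads are uncertain. Il17rc and Il17rd had log2 fold changes of 0.54 and 0.20 and were not called. Of the ligands, Il17b alone was tested (log2 fold change -1.08, adjusted p = 0.379, edgeR), Il17a and Il17f were listed at 0, and no value is given here for Il17d.

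In the IL-10 and IL-20 group, Il20rb rose in ICH. This receptor chain for IL-19, IL-20 and IL-24 measured 0.687, 0.342 and 0.142 CPM in Sham, 4.43, 4.15 and 2.21 CPM in ICH, and 0.371, 0.540 and 0.750 CPM in EDB. The EDB and Sham ranges overlapped in part and ICH stood apart from both. The rise in ICH against Sham was 3.16 ± 0.56 (adjusted p = 0.00277, edgeR), on 183 counts against 18 and a scaled ratio of 8.82 (exact 95% interval 5.43 to 15.2). The ligand genes Il19 and Il20 were listed at 0, and Il24 had 4 counts over all libraries.

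Il10ra, the ligand-binding chain of the IL-10 receptor that is known from microglia and other leukocytes, measured 28.3, 36.1 and 30.5 CPM in Sham, 51.4, 57.8 and 44.6 CPM in ICH, and 53.7, 56.7 and 29.1 CPM in EDB. ICH lay above Sham without overlap, whereas EDB 3 was within Sham and the other EDB libraries within ICH. The difference of 0.70 ± 0.23 in ICH against Sham had an adjusted p of 0.0551 (edgeR), and of 0.00861 without EDB 3. It was called in 5 of the 9 other settings, at adjusted p between 0.00959 and 0.0678 over all of them. Its partner Il10rb was listed at 0 in all libraries, and Il10 had 2 counts, both in ICH 1. Widely expressed genes such as Stat6, with 6 counts over all libraries, and Sigirr, at 0, were also close to or at 0 in these counts, so a 0 is given as listed and not as absence.

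The remaining tested genes were not called in any comparison. Il12a, a subunit of IL-12 and IL-35, measured 4.69, 5.54 and 5.10 CPM in Sham and 3.56, 3.59 and 3.67 CPM in ICH, the only member with all ICH libraries below all Sham libraries (log2 fold change -0.50, adjusted p = 0.216, edgeR). Il23a and Il12rb2 had log2 fold changes of -0.54 and -0.99. Il3ra, the IL-3-binding chain, stood at 9.31, 8.34 and 6.51 CPM in Sham, 11.5, 10.8 and 6.75 CPM in ICH, and 8.04, 7.67 and 6.44 CPM in EDB, with overlap throughout. In all, 17 of the 33 genes did not overlap between ICH and Sham, beside 35.6% of all genes tested.

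The depth behind the ligands was small. Of the 32 ligand genes, 13 had no count in any library and 7 could be tested. Of the 41 receptor chains and binding proteins, 3 had no count and 24 could be tested. Over all libraries the ligands held 6033 counts and the receptor chains and binding proteins 64606. Il33 alone held 4410 of the ligand counts, and Il6st alone held 24135 of those of the receptor chains and binding proteins. Whether these classes differed in their response was not tested. Of the 42 genes under the filter, 16 were listed at 0 in all libraries and 26 had 1 to 72 counts in all, 15 of them under 20. Il12b, the subunit shared by IL-12 and IL-23, had 7 counts, all in ICH libraries, and Il4 had 7 counts in Sham 1 and 2 in EDB 2.

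**Figure D3:**
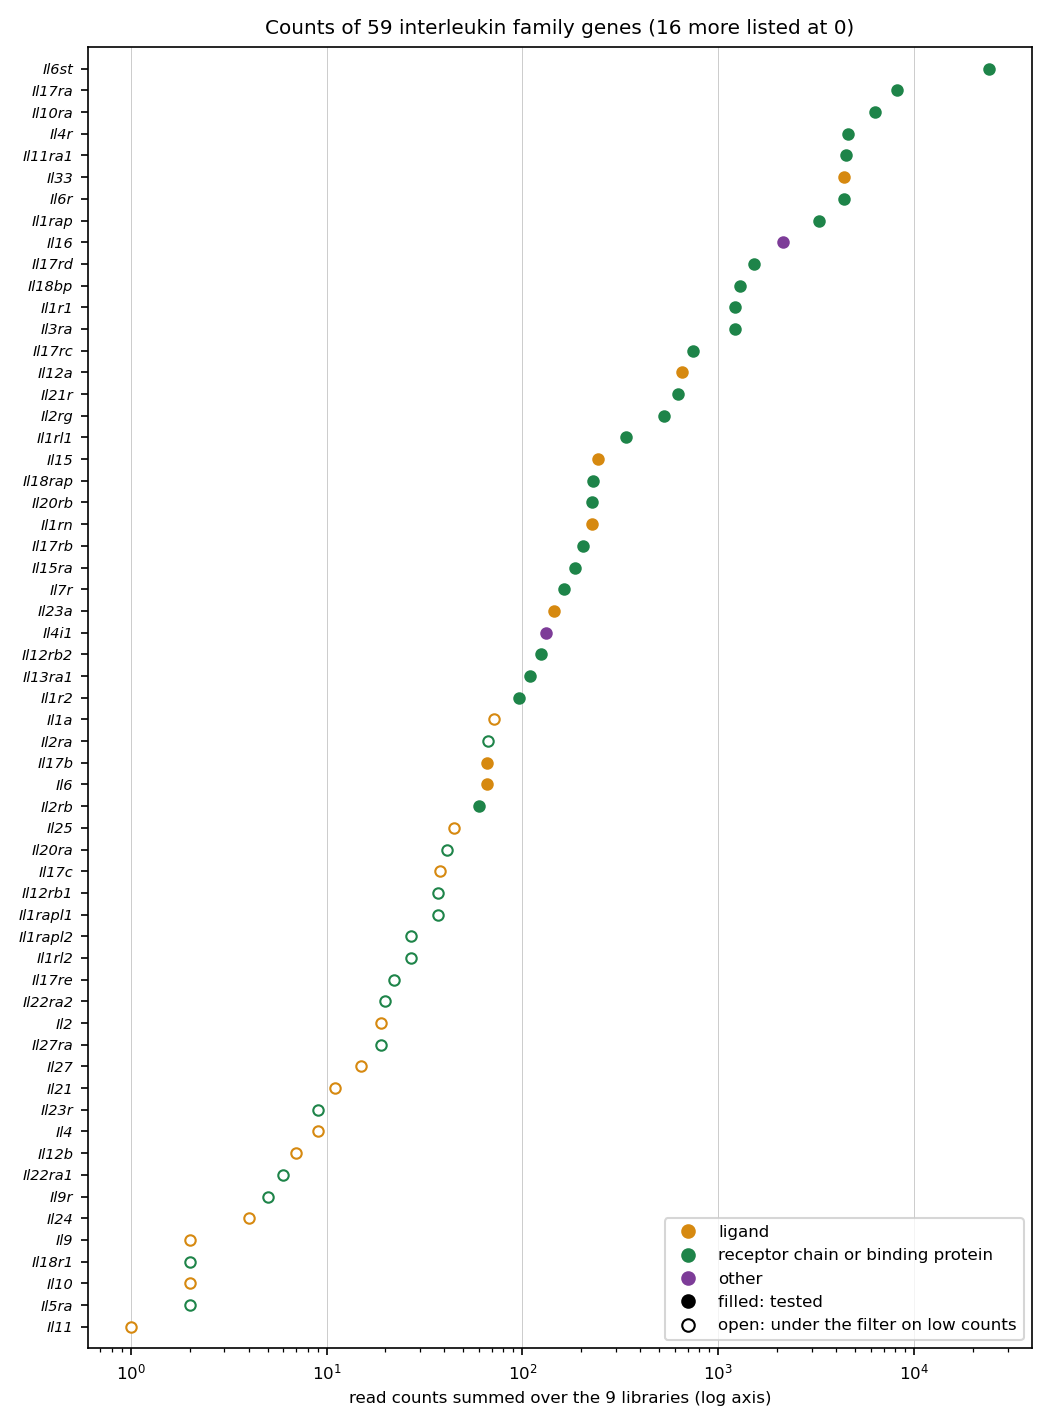
Read counts summed over the 9 libraries (x axis, log scale) for the 59 interleukin family genes with at least 1 count (y axis). Filled points were tested and open points were under the filter on low counts; most ligands (orange) lie at low counts, 16 further genes were listed at 0, and counts are not scaled by gene length, so they show the depth behind a test and not the relative abundance of different genes.

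EDB against ICH addressed whether the treatment group differed from hemorrhage. Il4r was the 1 member called of 33, and it fell by 1.16 ± 0.21 on the log2 scale (adjusted p = 0.0439, edgeR), from 54.5 ± 5.4 CPM in ICH to 24.3 ± 7.4 CPM in EDB (SD, n = 3 in each). Of all genes tested, 0.687% were called in this comparison, 0.631% as lower. The call was lost without any 1 library other than Sham 2 or EDB 1, with log2 fold changes between -1.43 and -1.0 over the 9 such fits and adjusted p up to 0.151. It was also lost with only the 6 libraries of these groups and with the replicate block (highest adjusted p over the other settings 0.0873). With those 6 libraries Il20rb was called instead (adjusted p = 0.0470, edgeR).

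Among the genes that did not pass, Il20rb and Il21r came closest. The EDB mean of Il20rb was 0.554 ± 0.190 CPM against 3.60 ± 1.21 CPM in ICH (SD, n = 3), a log2 difference of -2.68 ± 0.54 (adjusted p = 0.0537, edgeR). Il20rb was called in 6 of the 9 other settings, with adjusted p = 8.42e-04 in DESeq2. Il21r differed by -1.51 ± 0.31 (adjusted p = 0.0580, edgeR; 0.00125 in DESeq2). For Il1rn the difference was -2.05 ± 0.59 (adjusted p = 0.128, edgeR; 0.0402 in DESeq2), and -1.43 without ICH 1. Il17ra differed by -0.51 ± 0.15 (adjusted p = 0.130, edgeR), Il1r2 by -1.39 ± 0.51 (adjusted p = 0.215) and Il18rap by -1.20 ± 0.57 (adjusted p = 0.329). Il16 differed by -0.36, with a 95% interval of -0.82 to 0.10.

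In 13 of the 33 genes every EDB library was below every ICH library, beside 25.2% of all genes tested that did not overlap in either direction. They included Il1r1 and Il2rg, which were not called in ICH against Sham, and left out Il15ra and Il17rb. At an unadjusted p under 0.05, 9 of the 33 differed, beside 16.2% of all genes tested. The median log2 fold change over the 33 was -0.39, beside -0.03 over all genes.

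EDB against Sham placed the treatment group beside the control. Here 5 of the 33 genes were higher and none lower, or 15.2%, beside 7.66% of all genes tested, 4.95% as higher and 2.71% as lower. Il16 was higher by 1.80 ± 0.22 (adjusted p = 0.00113, edgeR) and Il6r by 0.77 ± 0.15 (adjusted p = 0.00899). Il18rap was higher by 3.23 ± 0.75 (adjusted p = 0.0261), Il21r by 1.53 ± 0.34 (adjusted p = 0.0202) and Il4r by 0.91 ± 0.22 (adjusted p = 0.0294). At an unadjusted p under 0.05, 10 of the 33 differed, beside 22.9%. Only Il16 kept its call when each library was left out in turn. Without Sham 1 the other 4 were not called, their adjusted p lying between 0.050006 for Il6r and 0.121 for Il4r. Il18rap, Il21r and Il4r were also not called without Sham 3 or without EDB 1, Il21r without EDB 2, and Il4r without ICH 2, with adjusted p up to 0.102 for Il18rap and 0.0804 for Il21r.

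Il20rb, one of the genes with the largest changes in ICH, overlapped between EDB and Sham. Its difference of 0.47 had a 95% interval of -0.84 to 1.79, which does not show equal levels. Il1r2 differed by 1.19 (-0.16 to 2.54). Il1rn, at 1.86 ± 0.72 (adjusted p = 0.145, edgeR), Il15ra, at 2.07 (adjusted p = 0.120), Il1rl1, at 1.23 (adjusted p = 0.126), and Il17ra, at 0.49 (adjusted p = 0.0692), were above Sham in every EDB library without passing. In 12 of the 33 genes EDB and Sham did not overlap, beside 26.1% of all genes tested. Il10ra reached 0.56 (adjusted p = 0.169, edgeR), and 0.80 without EDB 3 (adjusted p = 0.0160).

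**Figure D4:**
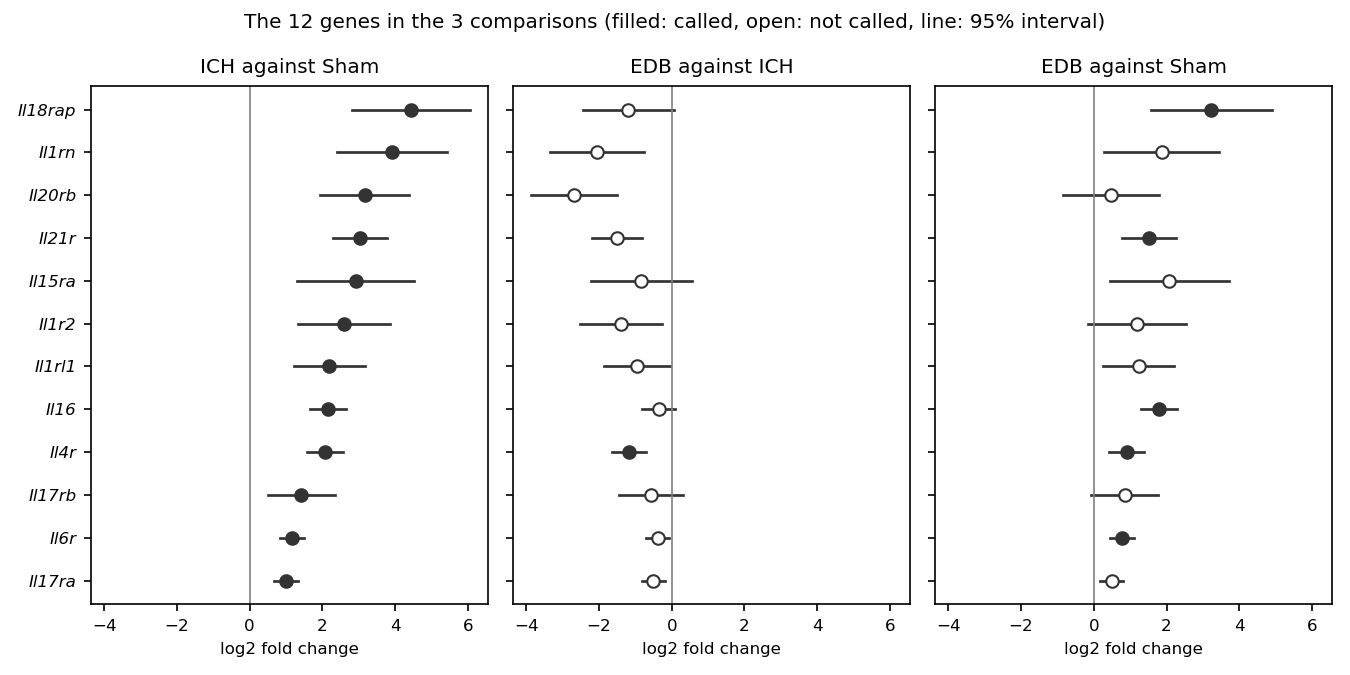
Log2 fold change (x axis) of the 12 genes called higher in ICH than in Sham, in each of the 3 comparisons (panels), with the 95% interval; filled points were called. In EDB against ICH all 12 points lie to the left of 0 and only Il4r is filled; in EDB against Sham all lie to the right of 0 and 5 are filled. The panels share libraries and are not independent.

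The signalling genes downstream were taken as lists. Of 8 tested Jak and Stat genes, 4 rose in ICH against Sham and none fell: Stat3 by 1.13, Stat2 by 1.42, Stat4 by 1.56 and Stat5a by 1.05. The same number, 4, was higher in EDB than in Sham, and 0 were called in EDB against ICH (3 at an unadjusted p under 0.05). The list's median log2 fold change in ICH against Sham was 0.78. Of 9 tested IL-1 receptor adaptors and regulators, Irak4 (1.45), Myd88 (1.25) and Tab2 (0.61) rose in ICH, and Irak4 and Myd88 were higher in EDB than in Sham, by 0.76 and 0.65.

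Feedback regulators of cytokine receptors moved in both directions. Of 12 tested, Ptpn6 (3.05) and Socs3 (2.89) rose in ICH, and Socs7 (-0.58) and Socs5 (-0.54) fell. Socs3, which is induced by Stat3 and blocks gp130 signalling, measured 2.81, 2.39 and 2.76 CPM in Sham, 22.7, 18.8 and 17.9 CPM in ICH, and 8.04, 4.68 and 3.88 CPM in EDB. It was the 1 gene of this list called in EDB against ICH, lower by a log2 difference of -1.84 ± 0.27 (adjusted p = 0.0244, edgeR). Among 10 Stat3-responsive genes, 6 rose in ICH against Sham and none fell, with Cebpd at 2.19 and Timp1 at 4.60. In EDB against ICH 4 fell (Cebpd, Socs3, Timp1 and Fos). Of these, Fos had not risen in ICH against Sham (-0.63, not called). Its means were 48.1 CPM in Sham, 31.0 CPM in ICH and 9.77 CPM in EDB. Among 5 tested genes known to respond to IL-4, Tgm2 (0.96), Arg1 (1.90) and Mrc1 (1.64) rose in ICH and Klf4 (-1.47) fell. Arg1 measured 2.44, 1.64 and 2.05 CPM in Sham, 11.3, 7.05 and 4.70 CPM in ICH, and 1.92, 2.16 and 2.19 CPM in EDB, and its fall of 1.88 on the log2 scale was the 1 call of that list in EDB against ICH (adjusted p = 0.0439, edgeR).

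Related receptor families held further risen genes. Of 6 tested partner chains and related receptors, Csf2rb, Csf1r and Csf2ra rose in ICH, and Csf2rb, the chain shared by IL-3, IL-5 and GM-CSF receptors, rose by 4.72 ± 0.37 (adjusted p = 2.62e-05, edgeR). It measured 3.31, 2.94 and 2.41 CPM in Sham, 90.1, 82.7 and 57.2 CPM in ICH, and 33.3, 28.2 and 12.4 CPM in EDB, and was called lower in EDB than in ICH (-1.64, adjusted p = 0.0452). Of 9 tested gp130 family genes not named as interleukins, Lif (3.60), Ebi3 (1.80) and Osmr (1.5) rose in ICH, and 0 were called in the other comparisons by edgeR.

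Cell markers moved with these changes, and their part in the results was not tested. Of 7 microglial markers 5 rose in ICH, and Tmem119 (0.27, adjusted p = 0.488, edgeR) and P2ry12 (1.68, adjusted p = 0.0732) were not called. The list summed to 503 to 573 CPM in Sham, 1672 to 1715 CPM in ICH and 878 to 1591 CPM in EDB. Csf1r was the largest part of the microglial sum, with means of 220 CPM in Sham and 862 CPM in ICH. Of 6 tested monocyte and border macrophage markers 4 rose, and Cd163 and F13a1 were not called. Their list summed to 41.1 to 59.2 CPM in Sham, 422 to 686 CPM in ICH and 143 to 216 CPM in EDB, with ICH 1 highest. Lyz2 made up most of that sum, with means of 39.1 CPM in Sham and 446 CPM in ICH. Ccr2 was under the filter, with means of 0.0625 CPM in Sham, 0.335 CPM in ICH and 0.0415 CPM in EDB. Of 6 neutrophil markers 3 could be tested and rose (Csf3r, S100a8 and S100a9), at a summed 8.21 to 10.3 CPM in Sham, 54.3 to 65.7 CPM in ICH and 21.3 to 37.7 CPM in EDB over the 6. Csf3r, which other myeloid cells also express, made up most of that sum, with means of 7.72 CPM in Sham and 53.3 CPM in ICH. The granule genes Mpo, Elane and Camp were under the filter, at 0 to 0.312 CPM in Sham, 0 to 0.0629 CPM in ICH and 0 to 0.188 CPM in EDB. None of the 4 tested T cell markers was called (0 at an unadjusted p under 0.05), and their list of 8 summed to 3.89 to 4.72 CPM in Sham, 4.37 to 5.72 CPM in ICH and 4.5 to 5.13 CPM in EDB. Natural killer cell markers had 15 counts in Sham, 9 in ICH and 18 in EDB over 3 genes, and none could be tested. EDB 3 was lowest of the EDB libraries in the microglial sum, at 878 CPM. It was also lowest in the risen genes other than Il1rn and Il20rb, which were highest there, and Il17rb, which was lowest in EDB 1.

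Markers of resident cells differed between the groups as well. Of 5 astrocyte markers 2 rose in ICH, Gfap by 3.34 and Gja1 by 0.60 on the log2 scale. The list summed to 1362 to 1769 CPM in Sham, 6270 to 6757 CPM in ICH and 3929 to 4756 CPM in EDB. Gfap made up most of the ICH sum, with means of 484 CPM in Sham and 4918 CPM in ICH. Aqp4 (0.92), Aldh1l1 (-0.20) and Slc1a2 (-0.24) were not called in ICH against Sham. The 5 oligodendrocyte markers had 0 calls in any comparison by edgeR, though all 5 differed between EDB and Sham at an unadjusted p under 0.05. They summed to 15871 to 25242 CPM in Sham, 14690 to 29866 CPM in ICH and 34936 to 40824 CPM in EDB. Of 7 tested striatal neuron markers 4 fell in ICH, at 7192 to 11933 CPM in Sham, 5173 to 6520 CPM in ICH and 7838 to 8746 CPM in EDB. Of 5 fibroblast and meninges markers only Pdgfra rose in ICH, by 0.59 (adjusted p = 0.0498, edgeR). Col1a1 (0.93), Dcn (0.45), Lum (0.76) and Col3a1 (1.64) were not called. Their list summed to 105 to 160 CPM in Sham, 179 to 275 CPM in ICH, highest in ICH 1, and 122 to 216 CPM in EDB. Pdgfra was the largest part of that sum in every library, with means of 101 CPM in Sham and 151 CPM in ICH. The call and the sum therefore do not stand for the other genes of that list, and the cell source of Pdgfra was not tested. Of 4 tested endothelial markers 1 fell in ICH, Flt1 (-0.77), with means of 140 CPM in Sham and 81.8 CPM in ICH. Pecam1 (-0.18), Tek (-0.59) and Cdh5 (0.05) were not called. The list summed to 230 to 361 CPM in Sham, 172 to 224 CPM in ICH and 180.1 to 199.9 CPM in EDB, with Flt1 the largest part.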

How the data were processed

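The authors deposited whole-number read counts per gene for each library. Per the submitters' processing notes, cutadapt, HISAT2, HTSeq and limma were used with the rat build Rnor_6.0; versions, their order and any strand setting were not given. Gene-level counts cannot be split between overlapping genes. Per the labels' protocols, RNA was extracted with TRIzol.

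Counts were tested with edgeR 4.0.16 in R 4.3.3 (limma 3.58.1): filterByExpr by group kept 14274 of 22890 genes, libraries were scaled by TMM, and a robust quasi-likelihood fit had 1 mean per group over all 9 libraries. Calls were made at 0.05 after Benjamini-Hochberg adjustment across the 14274 genes. CPM values use the TMM-scaled totals, and within-library log2 ratios add 0.5 to each count. Intervals on summed counts are exact at 95% and, like the floor of 3 counts, cover counting error only. No 2 libraries held identical values.

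The members, lists and tests were chosen with earlier results of these data known. Described with every library's value were members called in any comparison and a list of main ligands and receptors; other lists are given by counts and their genes of smallest p. Symbols of all 75 genes matched RefSeq, whose GRCr8 tables gave neighbours, overlaps and promoter windows; the search left out the 50 bases after the start. Alternatives were other scalings, filters and libraries, a replicate block, DESeq2 1.42.0 and limma-voom.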

Additional observations from a re-analysis of the deposited data

How the results depend on the processing

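For ICH against Sham the count of called interleukin family genes was 12, and 11 to 13 under the 9 other settings. Leaving out 1 library gave 9 to 13, with 9 without ICH 1. For EDB against ICH the count of 1 became 3 with library size only, 2 with no filter, 2 with at least 1 CPM in 3 libraries, 4 in DESeq2, 3 in limma-voom and 0 with the replicate block. Leaving out 1 library gave 0 to 3 there, with 3 without Sham 2 and 1 without EDB 1. For EDB against Sham the count of 5 became 3 in limma-voom, 2 with only the 6 libraries compared and 3 with the replicate block, 7 in DESeq2 and 7 with the 6 libraries other than Sham 2, ICH 1 and EDB 3, and 1 to 6 without 1 library (1 without Sham 1, 2 without Sham 3, 2 without EDB 1). Over all genes, EDB against ICH had 98 calls, and 702 in DESeq2, 182 in limma-voom, 58 with the replicate block, 198 with the 6 libraries other than Sham 2, ICH 1 and EDB 3, and 8 to 321 without 1 library (8 without ICH 2, 321 without Sham 2). EDB against Sham had 1094, 1797 in DESeq2 and 508 to 1661 without 1 library (508 without EDB 1, 1661 without Sham 2). ICH against Sham had 2670, and 1769 to 2624 without 1 library (1769 without ICH 1). With library size only, 2008 of 2699 calls in ICH against Sham were higher, beside 1628 of 2670 with TMM.

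Uncalled values that changed sign in ICH against Sham were those of Il1r1 (-0.246), Il33 (-0.123), Il13ra1 (-0.308) and Il15 (0.0117) with the 6 libraries other than Sham 2, ICH 1 and EDB 3. When 1 library was left out, Il1r1 ranged from -0.0376 to 0.476 (below 0 without Sham 2 and without ICH 1), Il15 from -0.386 to 0.0534 (above 0 without ICH 1) and Il11ra1 from -0.028 to 0.162 (below 0 without ICH 2). The cause was not tested. Same-numbered libraries did not deviate together as a set (correlations -0.31 to 0.25 over 9 pairs). Of 9 libraries, 0 correlated best with their own number in both other groups at once. Single pairs did go together, ICH 2 with Sham 2 (0.25) and ICH 3 with EDB 3 (0.22). Most ligand genes had too few counts to be tested.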
